A study of Mus musculus with 4 samples.

Results

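The DNA damage signalling and repair genes described here are a list of 41 mouse genes, matched exactly to the gene symbols of 3 peak lists. Of these 41 genes, 26 held a peak in at least 1 list, out of 6078 genes that the lists name. The study mapped N6-methyladenosine (m6A), a methyl mark on adenosines inside mRNA, in mouse embryonic fibroblasts that express the viral oncogene E1A and the oncogenic RAS allele HRasV12. The method was m6A-eCLIP, in which an antibody crosslinked to RNA pulls down methylated fragments, whose pile-up is then set against input RNA. The control cells carried control shRNA (shLuc) and the other cells (called the knockdown below) carried shRNA directed at Mettl3, the enzyme subunit that writes m6A. Both groups had received doxorubicin at 0.2 µg/ml for 6 h, so no undamaged cells entered the comparison. The question of the comparison is which m6A marks after DNA damage depend on Mettl3. Each group was 1 m6A-eCLIP library from purified mRNA, read against 1 input library from total RNA. With 1 library per group no difference below has a replicate check or a test of the conditions, and read depth is unknown because the lists hold no counts.

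As background, DNA damage is read by kinases of the Atm and Atr family, which pass the signal through mediator proteins and checkpoint kinases. The lesion is then handed to a repair route fitted to its kind, such as homologous recombination or end joining for broken DNA ends, excision for damaged bases, or bypass by translesion polymerases. Doxorubicin traps topoisomerase II on DNA and so leaves broken ends. m6A is deposited on mRNA mostly in long internal exons, around stop codons and in the 3' UTR, and bears on mRNA decay and translation.

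In the control list 18 of the 41 genes held a peak, or 43.9%, against 20.1% of 21900 protein-coding genes of the RefSeq table. In the knockdown list 19 did, or 46.3%, against 19.4%. Whether these shares depend on which genes the cells transcribe was not tested, since the peak lists do not give transcript levels. Both lists shared 17 of the genes. Rad18 alone was found only in the control list, 1 of 18 genes, while 17.2% of all genes with a control peak had no knockdown peak. Mdc1 and Trp53bp1 were found only in the knockdown list, 2 of 19, against 15.1% of all genes with a knockdown peak. The genes carried 61 control and 54 knockdown peaks, many of them adjoining pieces of the same stretch, and joining the pieces left 33 and 29 stretches.

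Coding sequence held nearly all of these peaks. It took 55 of 61 control peaks, or 90.2% (exact 95% interval 79.8 to 96.3), and 50 of 54 knockdown peaks, or 92.6% (82.1 to 97.9). Over all genes coding sequence took 57.0% of control and 60.5% of knockdown peaks. The 3' UTR held 3 peaks in each list, 4.92% and 5.56%, where all genes had 30.9% and 27.3%. No peak lay in a 5' UTR, where all genes had only 1.79% and 2.39%. Counted by gene, 16 of 18 genes with a control peak and 18 of 19 with a knockdown peak had one in coding sequence, or 88.9% and 94.7%, against 66.3% and 68.4% of all genes in each list. The intervals cover counting error only and treat adjoining peaks as independent. In 128 other repair genes the coding share was nearer that of all genes, 76 of 117 control peaks (65.0%) and 77 of 116 knockdown peaks (66.4%). H2afx alone supplied 15 of these control peaks and 21 of these knockdown peaks, and no share by gene or without H2afx is given.

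**Figure D1:**
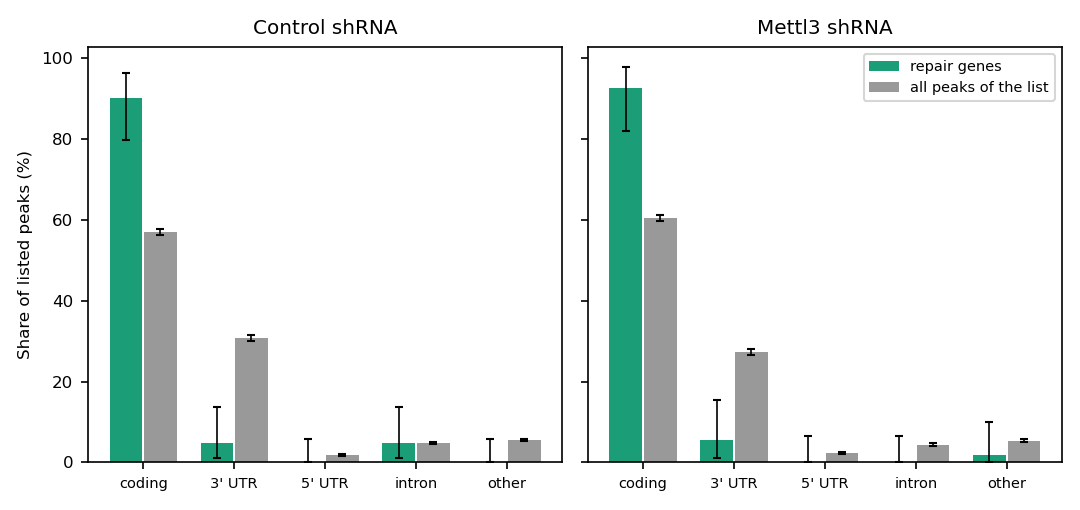
Share of listed peaks (%) by region for the 41 damage and repair genes (green) and for all peaks of the list (grey), with exact 95% intervals that cover counting error only, 1 library per panel. The coding share of the repair genes is 90.2% and 92.6%, above the 57.0% and 60.5% of all peaks, and their 3' UTR share is lower.

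Many peaks lay close to the lower limit of the lists. Folds and p-values are the authors' own values for each peak, and every listed peak exceeds a log2 fold over input of 3. A site missing from a list can therefore be enriched up to that limit. The median log2 fold over input of the peaks in the 41 genes was 3.55 in the control and 3.58 in the knockdown, against 3.69 and 3.83 over all peaks. A log2 fold under 3.5 was seen in 49.2% of their control peaks and 48.1% of their knockdown peaks, against 38.1% and 31.7% over all peaks. Counted by peak, the p-values were like those of the lists as a whole. The −log10 p had its upper limit of 400 in 34 of 61 control peaks (55.7%, against 55.9% of all) and in 32 of 54 knockdown peaks (59.3%, against 57.4%). Of these, 13 control and 12 knockdown peaks were adjoining pieces of 1 stretch in Rev1, so the likeness leans on that gene.

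All 4 genes of translesion synthesis held a peak over input. The group had 19 control and 15 knockdown peaks, most of them pieces of 1 Rev1 stretch, and joining the pieces left 5 and 3 stretches. Rev1 encodes a polymerase that also serves as the scaffold on which bypass polymerases assemble. It had 13 control and 12 knockdown peaks, all adjoining in 1 coding stretch on chromosome 1 of mm10 (minus strand). The control stretch covered 38088023 to 38088551, 529 bases, and the knockdown stretch from 38088034 to 38088556, 523 bases. Log2 folds over input of its pieces ran from 4.05 to 4.85 in the control and from 4.13 to 4.91 in the knockdown. The stretch and its height were thus nearly the same in both libraries, with a largest linear fold of 28.8 and 30.0. Rev1's largest fold exceeded that of 90.1% of control genes and 84.8% of knockdown genes.

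Rev3l, the catalytic subunit of polymerase zeta, had coding stretches at log2 3.09 and 3.05 in the control, and 1 at 3.33 in the knockdown that overlapped the second of these. Polh, the polymerase that copies past ultraviolet lesions, had a 3' UTR peak at 3.45 in the control and a coding stretch at 3.11 in the knockdown. The stretches of Polh lay 189 bases apart and did not overlap. Rad18, the ubiquitin ligase that marks PCNA at stalled forks, had 3 adjoining control peaks at 3.29, 3.83 and 3.91, spanning 298 bases annotated as distal intron, and none in the knockdown list. It was the only intronic signal among the 41 genes. The Rad18 stretch was also the strongest control stretch of the 41 genes without a knockdown counterpart. The comparison list held no peak in Rad18.

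**Figure D2:**
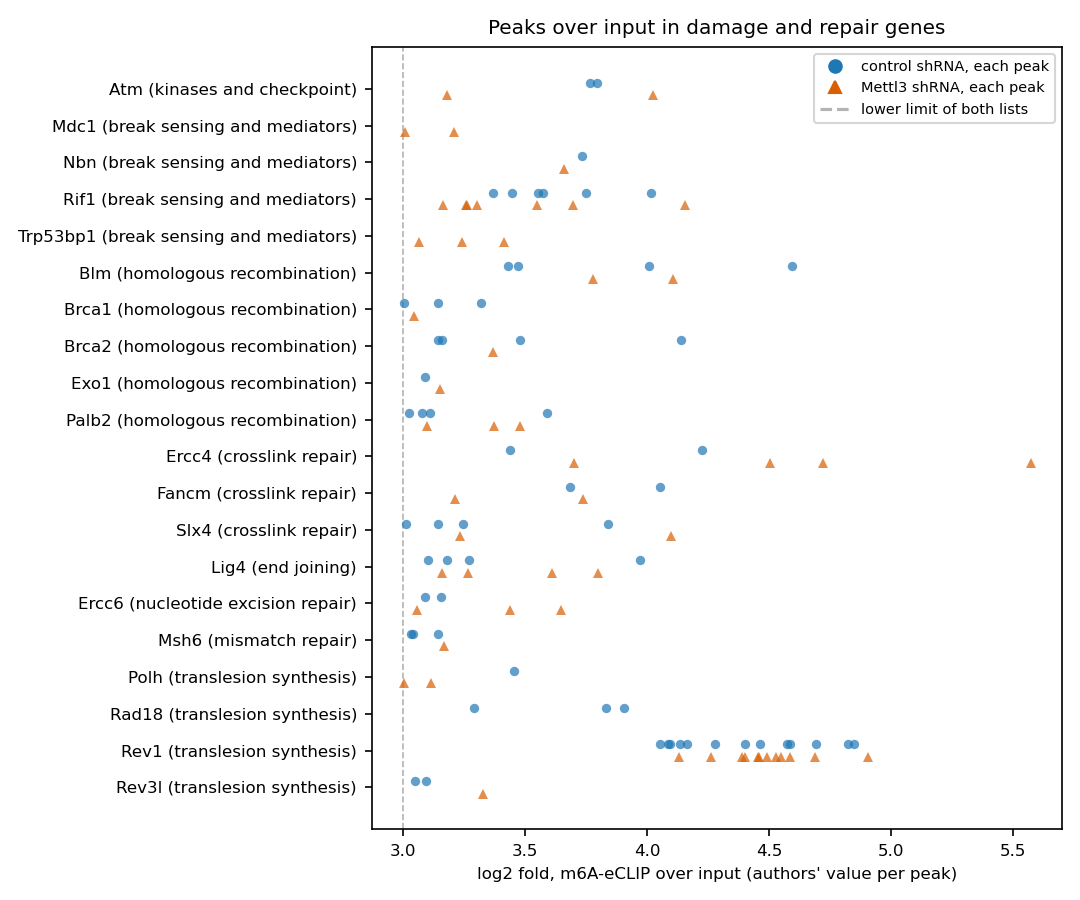
Log2 fold over input (horizontal axis) of every listed peak in the 20 damage and repair genes with a peak over input, ordered by repair route, for the control (circles) and the knockdown (triangles), 1 library each. In the control 49.2% of peaks and in the knockdown 48.1% lie under 3.5, near the lower limit of 3 (dashed line), while Rev1 lies between 4.05 and 4.91 and a single Ercc4 piece reaches 5.57.

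Homologous recombination had 5 of its 7 genes in both lists, with 16 control peaks in 11 stretches and 8 knockdown peaks in 7 stretches. The helicase gene Blm carried 1 coding stretch on chromosome 7, at 80512821 to 80513198 in the control and 80512837 to 80513257 in the knockdown. The control pieces of Blm stood at log2 3.43, 3.47, 4.01 and 4.59 and the knockdown pieces at 3.78 and 4.11. Blm was thus higher in the control at its summit, while its means weighted by length were 4.01 and 4.04. Brca2, a mediator of strand exchange in recombination, had 3 coding stretches in the control and 1 in the knockdown. The shared one, on chromosome 5 at 150543111 to 150543458 in the control, reached 4.14 there and 3.37 in the knockdown. The other control stretches of Brca2 stood at 3.14 and 3.48, at distances of 3703 and 1616 bases from the knockdown stretch. Brca2 showed the largest excess of control over knockdown of any shared stretch in the 41 genes, 0.77 on the log2 scale, yet the comparison list held no peak in Brca2.

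Brca1, the partner of Bard1 in a ubiquitin ligase that promotes recombination, had 3 control peaks with log2 folds of at most 3.32 and 1 knockdown peak at 3.05. The knockdown peak of Brca1 lay between the control stretches without touching them, with gaps of 5 and 11 bases. All 4 peaks fell in coding sequence of chromosome 11 between 101525642 and 101526054. Palb2, which links Brca1 to Brca2, had 4 control peaks at 3.02 to 3.59 and 3 knockdown peaks at 3.10 to 3.48, and each knockdown peak overlapped a control peak. Exo1, the nuclease that resects broken ends, had a coding peak at 3.09 in the control and a 3' UTR peak at 3.15 in the knockdown, 8083 bases apart in the genome. The strand-exchange partner gene Bard1 and the helicase gene Wrn had no peak in any list.

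Among the sensors and mediators of broken ends, Rif1 stood out by its length. Rif1 acts with 53BP1 to shield ends from resection. Its coding stretch on chromosome 2 spanned 502 bases in the control (52112296 to 52112797) and 487 in the knockdown (52112290 to 52112776). Log2 folds of its 6 coding pieces in each list ran from 3.37 to 4.02 in the control and from 3.16 to 4.15 in the knockdown. The knockdown list had a further Rif1 peak at 3.26, annotated as a 5' splice site and starting 53 bases into the gene. Nbn, a subunit of the Mre11 complex that first binds broken ends, had 1 coding peak in each list, at 3.73 and 3.66, with ends that differed by at most 4 bases. Its partners Mre11a and Rad50 had no peak over input. Trp53bp1 (53BP1) had 3 adjoining coding peaks at 3.06, 3.24 and 3.41, and Mdc1, the mediator that binds phosphorylated H2AX, 2 coding peaks at 3.01 and 3.21, all in the knockdown list alone. These lie close to the lower limit of the lists. Uimc1, which brings a Brca1 complex to ubiquitin chains, had no peak.

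**Figure D3:**
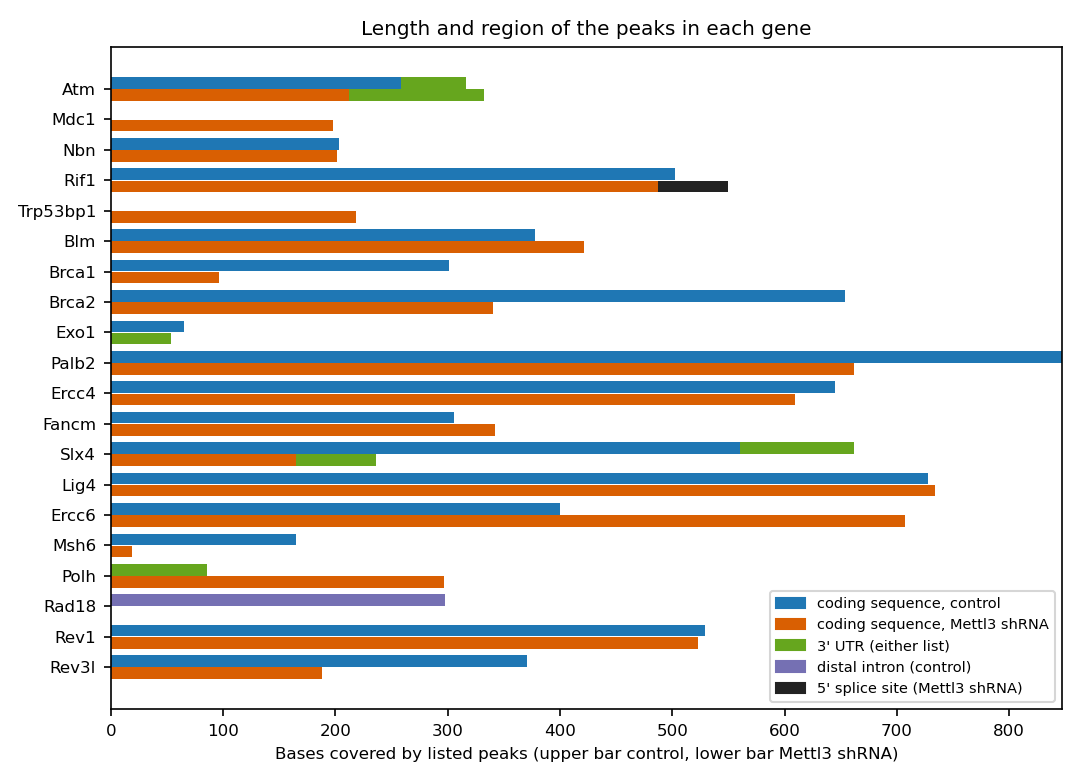
Bases covered by listed peaks in each gene (upper bar control, lower bar knockdown), coloured by region. Rev1, Rif1, Lig4 and Nbn cover similar lengths in both libraries. Brca2, Slx4 and Msh6 cover more in the control, and Ercc6 more in the knockdown.

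Crosslink repair was represented by Fancm, Slx4 and Ercc4, and each was in both lists. Ercc4, also called Xpf, is the nuclease subunit that cuts beside crosslinks and bulky lesions. It had 2 coding stretches on chromosome 16. The first, at 13130209 to 13130509 in the control, stood at log2 3.44 in the control and 3.70 in the knockdown. The second, at 13147911 to 13148254, stood at 4.22 in the control, while its 3 knockdown pieces included one at 4.72 and one at 5.57. The piece at 5.57 was 13 bases long, so the summit of Ercc4 in the knockdown, a 47.5-fold enrichment, rests on a narrow interval. Weighted by length, the second stretch of Ercc4 averaged 4.22 and 4.65.

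Fancm, the translocase that brings the Fanconi core complex to DNA, had a shared coding stretch at log2 4.05 in the control and 3.74 in the knockdown, and a knockdown peak at 3.21 with no control counterpart. Slx4, a scaffold for structure-specific nucleases, had a peak at the end of its reading frame in both lists. There the control held a 3' UTR peak at 3.84 and the knockdown a 3' UTR peak at 4.10 that adjoined a coding peak at 3.23. Regions are labelled per peak, and the control 3' UTR peak reached into bases labelled coding in the knockdown. Slx4 also had 3 coding peaks at 3.25, 3.15 and 3.01 in the control alone, the first of them only 5 bases long. Fanca and Fancd2, of the core complex and of the clamp it modifies, had no peak in any list.

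In the remaining routes the genes with peaks were few. Lig4, the ligase that seals ends in end joining, had coding peaks at 3.10, 3.18, 3.27 and 3.97 in the control and at 3.16, 3.27, 3.61 and 3.80 in the knockdown. Of the Lig4 stretches 2 were shared, with control against knockdown folds of 3.10 against 3.80 and 3.97 against 3.61. Lig4's partner in end joining, the kinase gene Prkdc, had no peak. Ercc6, which starts excision repair at stalled RNA polymerase, had 2 shared coding stretches, at 3.16 and 3.09 in the control and at 3.44 and 3.65 in the knockdown. The mismatch sensor gene Msh6 had coding peaks at 3.03, 3.04 and 3.14 in the control and 1 of 19 bases at 3.17 in the knockdown, 311 bases from the nearest control stretch. Every peak of Msh6 reached the highest −log10 p that the lists give, despite these folds.

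Of the signalling kinases Atm alone had peaks over input. They formed 1 stretch on chromosome 9 made of a 3' UTR piece and an adjoining coding piece. The control pieces of Atm stood at log2 3.77 in the 3' UTR and 3.79 in coding sequence, and the knockdown pieces at 3.18 and 4.02. Regions are labelled per piece and the pieces have different ends in the lists, so these folds do not compare the same bases. The stretch ran from 53439562 to 53439877 in the control and from 53439461 to 53439792 in the knockdown. Atm and Slx4 were the genes of the 41 whose stretches held pieces of both regions. Atr, the kinase of replication stress, its activator Topbp1 and the checkpoint kinases Chek1 and Chek2 had no peak in any list.

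Base excision and single-strand break repair, with Tdp2 counted here although it acts at DNA ends, had no peak over input in any of 5 genes. They are the damage sensor Parp1, the scaffold Xrcc1, the ligase Lig1, the glycosylase Neil3, and Tdp2, which removes trapped topoisomerase II from DNA ends. In all, 15 of the 41 genes had no peak in any list: Atr, Bard1, Chek1, Chek2, Fanca, Fancd2, Lig1, Mre11a, Parp1, Prkdc, Tdp2, Topbp1, Uimc1, Wrn and Xrcc1. The median genomic span in RefSeq was 50.9 kb for those of the 41 genes with a control peak. It was 52.4 kb for the 21 without a peak over input, which include these 15. Whether gene or transcript length bears on having a peak was not tested. All genes with a control peak had a median span of 27.9 kb.

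**Figure D4:**
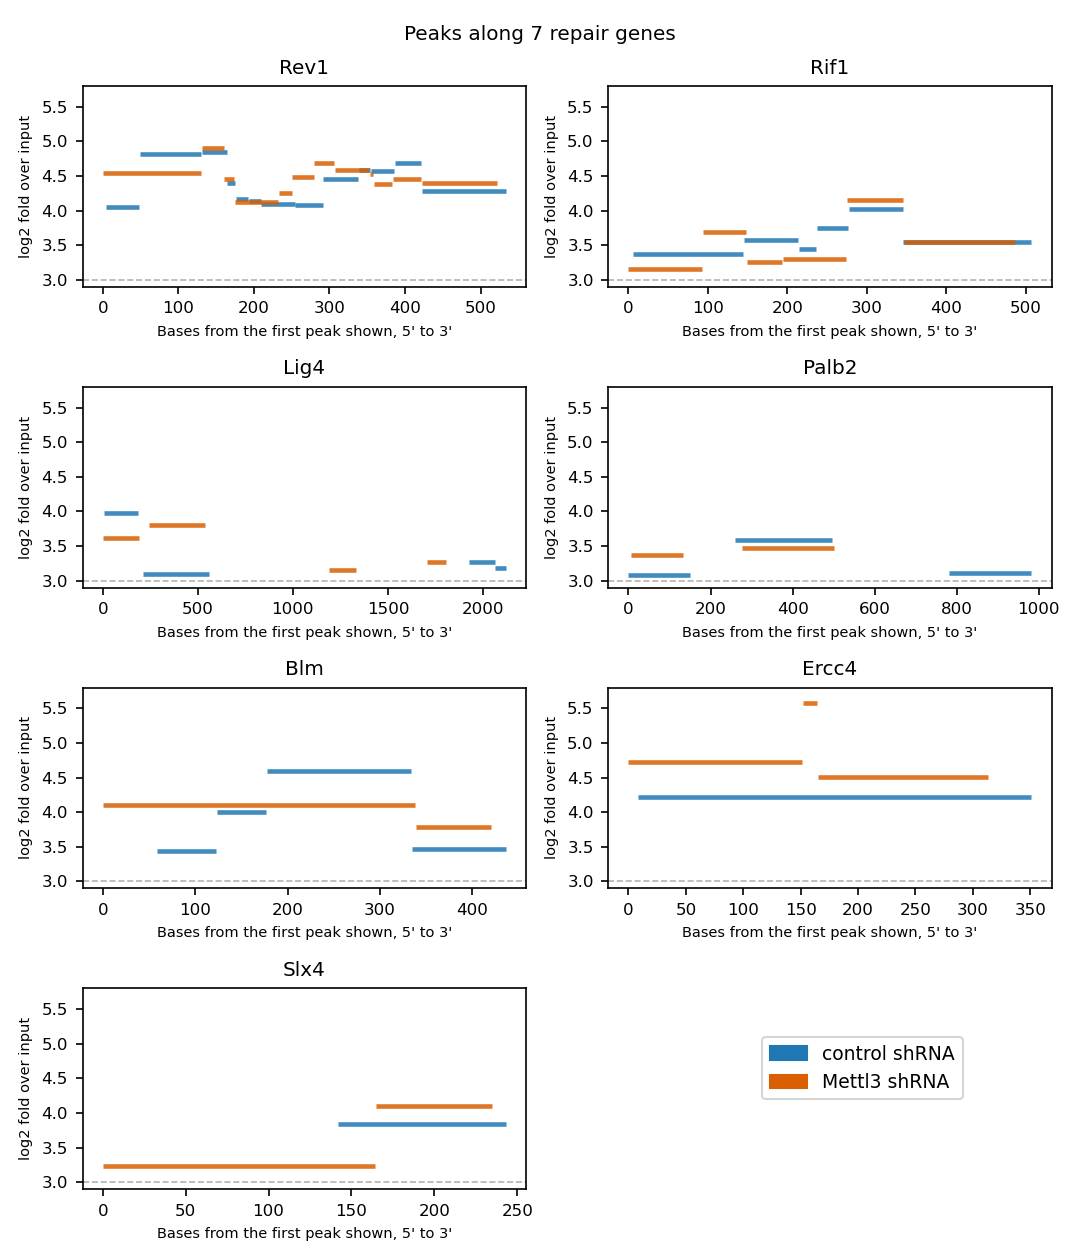
Log2 fold over input against distance in bases from the first peak shown, in the direction of transcription, for the 7 genes with most peaks (1 library per colour; each bar is 1 peak, the dashed line the lower limit of 3). Rev1, Rif1, Lig4 and Blm show coding peaks, Ercc4 its second stretch, and Slx4 the region at the end of its reading frame. Palb2 shows its stretches except the one of each list nearest the gene's 3' end. Rev1 and Rif1 are covered from end to end in both libraries, whereas the Lig4 peaks nearer the gene's end do not overlap.

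Not all peaks of the 41 genes were found in both libraries. A knockdown peak overlapped 41 of 61 control peaks, 67.2% (54.0 to 78.7), against 81.1% of all control peaks. In the reverse direction 39 of 54 knockdown peaks, 72.2% (58.4 to 83.5), met a control peak, against 83.7% of all. Every piece of the Rev1 stretch counts among the matched peaks, and the intervals treat adjoining pieces as independent. By the largest log2 fold, unmatched control stretches had a median of 3.14 and matched ones of 3.76, beside 3.32 and 3.80 over all genes. Of control stretches between 3.5 and 4, 5 of 6 were matched (all but Rad18), beside 80.6% of all, and at 4 and over 6 of 6 were, beside 88.1% of all. Under 3.5 it was 7 of 21, or 33.3%, where all genes had 56.6%. For the knockdown the counts were 6 of 6 from 3.5 to 4 (78.4% of all), 6 of 6 at 4 and over (85.5% of all) and 6 of 17 under 3.5 (35.3%, against 63.1% of all). Whether depth or expression of these genes differs from that of all genes at the same fold was not tested. A further 7 of the 15 unmatched control stretches had a knockdown peak within 500 bases. The same count over all genes is not given here, so how usual such near peaks are is unknown.

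Where stretches were shared, the folds did not move one way. Over 18 overlapping pairs in 13 genes, the largest log2 fold was higher in the knockdown in 12 and higher in the control in 6. The median of control minus knockdown was -0.18, against -0.07 over 6049 pairs of all genes, of which 55.5% were higher in the knockdown. The quartiles of all pairs were -0.41 and 0.26. Taken as means weighted by length, 10 of 18 pairs were higher in the knockdown and the median was -0.05, beside -0.07 for all. The range in the 41 genes ran from -1.35 in Ercc4 to 0.77 in Brca2.

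The authors' comparison list gives only peaks higher in the control than after knockdown. In the authors' deposited table, 8 of the 41 genes held such a peak: Atrx, Clspn, Exo1, Fanci, Neil3, Rad50, Rif1 and Xpa. Among genes with a control peak these were 2 of 18 (Exo1 and Rif1), or 11.1%, beside 12.2% of all such genes. Counting the 26 genes with any listed peak, they were 8, or 30.8% (14.3 to 51.8), beside 20.1% of all. In 6 of the 8 genes there was no peak over input, beside 609 of all 1220 genes of the authors' deposited table, or 49.9%. A difference between these shares was not tested, and 8 genes are few. In the 41 genes as over all genes, most genes with a control peak had no peak listed as higher in the control.

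Xpa, the scaffold protein of nucleotide excision repair, had the largest difference of the 41 genes in the authors' deposited table, a log2 difference of 1.29 (2.45-fold, p = 0.00353). Its peak of 194 bases, on chromosome 4 at 46175224 to 46175417, is labelled coding sequence, although it ends 4 bases from the gene's 3' end in RefSeq. By size of the difference this peak ranked 176 of the 1851 in the authors' deposited table. Clspn, the adaptor through which Atr activates Chek1, had the smallest p of the 41 genes in the authors' deposited table, 2.31e-04, with a log2 difference of 0.97 in its 3' UTR (126593405 to 126593569 of chromosome 4). Neil3, a glycosylase that also unhooks crosslinks, had a coding peak at 0.88 (p = 0.00270) in the authors' deposited table. Fanci, the partner of Fancd2 in the clamp, had 0.95 (p = 0.0112) in its 3' UTR in the authors' deposited table.

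Rad50, the coiled-coil subunit of the Mre11 complex, had 3 adjoining 3' UTR peaks in the authors' deposited table, with log2 differences of 0.83, 0.67 and 0.63 (p = 0.0137, 0.0198 and 0.0312). Together they span 257 bases of chromosome 11, from 53650164 to 53650420. Atrx, a chromatin remodeller that deposits histone H3.3, had a coding difference of 0.78 (p = 0.0291) in the authors' deposited table. Rif1 had 0.91 (p = 0.0361) over 32 coding bases in the authors' deposited table, 2264 bases from its nearest peak over input. The long Rif1 stretch itself held no listed difference.

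Exo1 was the only gene of the 41 whose listed difference coincided with a peak over input. In the authors' deposited table its coding peak at 175901090 to 175901154 of chromosome 1 had a log2 difference of 0.82 (p = 0.0304). The same 65 bases stood at log2 3.09 over input in the control. Taking the difference of the authors' deposited table from that fold gives 2.27, under the lower limit of 3. This reading assumes that the listed difference is one of folds over input, which held within 1e-06 in 5 of 5 peaks with the same ends in all 3 lists. A second, adjoining Exo1 peak had 0.64 (p = 0.0341) in the authors' deposited table and was not listed over input. The other 10 of the 11 listed peaks, adjoining pieces in Rad50 among them, overlapped no peak over input. Most peaks of the authors' deposited table as a whole overlapped none either, and a difference between these shares was not tested.

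**Figure D5:**
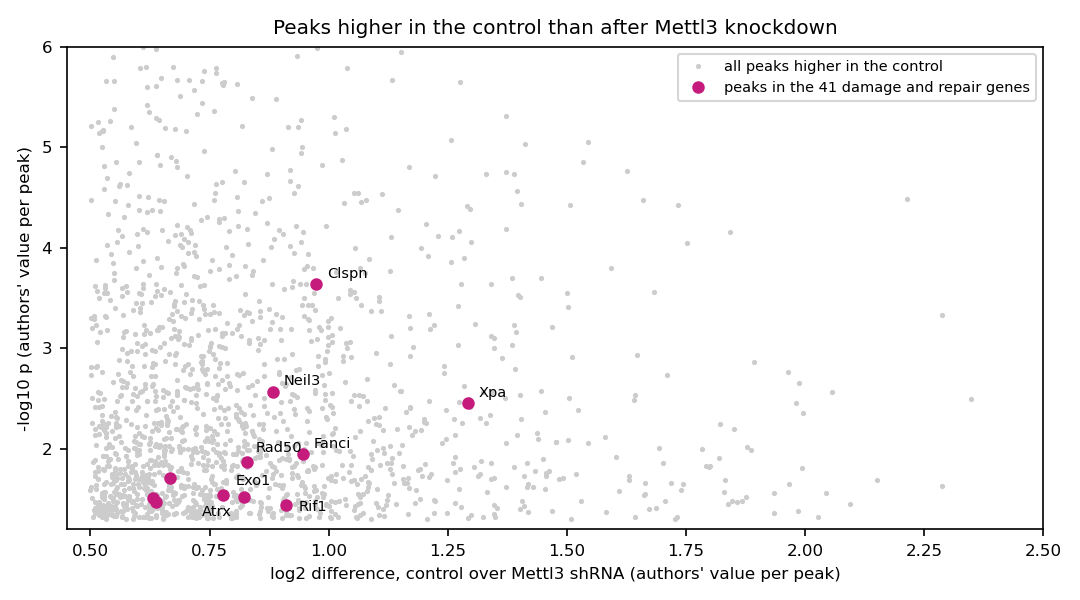
Log2 difference, control over knockdown, against −log10 p for all 1851 peaks of the authors' deposited table (grey, of which 217 lie outside the axes) and the 11 peaks in the damage and repair genes (pink, 8 genes named at their largest difference). Clspn has the smallest p and Xpa the largest difference, and 8 of the 11 peaks, adjoining pieces in Rad50 and Exo1 among them, have a p above 0.01.

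The 11 peaks had differences of ordinary size for the list. Their median log2 difference was 0.83, beside 0.76 over all 1851 peaks of the authors' deposited table. A p of at most 0.01 was reached by 3 of the 11 peaks (Clspn, Neil3 and Xpa), against 59.3% of all peaks in the authors' deposited table. The peaks above 0.01 include 3 adjoining pieces in Rad50 and 2 in Exo1, so the 11 are not independent. The table lists peaks up to a p of 0.05 and whether its p-values were adjusted is not given in the sources used here. By region, 6 of the 11 were coding and 5 were 3' UTR peaks, while the authors' deposited table as a whole had 39.8% coding and 59.1% 3' UTR peaks. Counted by gene, 5 of 8 had a coding peak and 3 of 8 a 3' UTR peak, beside 47.0% and 60.1% of all its genes.

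Other genes of the same routes gave a wider view. Of 128 further repair and damage genes, 42 had a control peak (32.8%), 38 a knockdown peak and 11 a peak higher in the control. With a control peak as the base, 5 of those 42 had a peak higher in the control. Largest in the authors' deposited table were the deubiquitinase gene Brcc3 with a log2 difference of 2.35 (p = 0.00323) and Uvssa, which acts with Ercc6 at stalled polymerase, with 2.03 (p = 0.0479). The nuclease Dna2 had 1.85 (p = 0.0335) and the recombination gene Rad52 1.28 (p = 0.00239) in the authors' deposited table. Values below 1 in the authors' deposited table included Polk (0.80), Tdp1 (0.75), Timeless (0.74), Rad23b (0.74), Chd4 (0.57) and Xrcc6 (0.56). Xrcc6, the Ku70 subunit of end joining, had the smallest p of the 11 in the authors' deposited table, 2.41e-05. Cell type markers could not check the tissue label, since peaks do not give transcript levels. Of the fibroblast markers 4 of 12 held a peak in the control and 5 in the knockdown, against 1 of 4 haematopoietic and none of 4 epithelial and 3 endothelial markers in each list.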

How the data were processed

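The 2 lists over input were deposited by the authors, 1 per m6A-eCLIP library. Per the file headers each peak has a −log10 p-value and a log2 fold over its input. The comparison list deposited by the authors gives a log2 difference and a p-value per peak. The submitters' processing notes name UMI-tools 0.5.1, cutadapt 2.7 and build mm10. An aligner, a caller and a statistical test were not given in the sources used here, and neither were counts or depths. The 41 genes and all lists were chosen with earlier results of these data known, so no count over them is independent support. Every gene with a peak is named. Printed starts are 1-based, converted from 0-based starts in the lists. Peaks count as overlapping from 1 shared base on the same strand (bedtools 2.31.1). Adjoining peaks of a gene were joined into stretches. Intervals are exact Clopper-Pearson 95% intervals (scipy 1.17.1). Gene spans come from RefSeq GRCm38.p6, the assembly behind mm10, and all 70 stretches lay inside them. pandas 2.3.3, numpy 2.4.6, matplotlib 3.10.9 and Python 3.11.15 were used, and overlap and joining were checked on simulated peaks. Peak sequences are not analysed here.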

Additional observations from a re-analysis of the deposited data

How the results depend on the processing

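No paired analysis was possible because each group had 1 library. Stricter thresholds shortened the gene counts, by construction. At a log2 fold over input of at least 4 there were 6 genes in the control, 6 in the knockdown and 4 in both (Blm, Ercc4, Rev1 and Rif1), with 2 in the control alone (Brca2 and Fancm) and 2 in the knockdown alone (Atm and Slx4). Peaks at the upper limit of −log10 p left 11, 11 and 9 genes, with 2 in the control alone (Brca2 and Rad18) and 2 in the knockdown alone (Ercc6 and Trp53bp1). So the genes found in 1 list only changed with the threshold. With both lists cut at a log2 fold of at least 4, 89.5% of peaks were matched in both directions. Peaks of Brca2, Fancm, Atm and Slx4 then counted as unmatched, although each overlapped a lower peak of the other list. At this threshold control peaks were 100% coding, with 0% in the 3' UTR and 0% in introns. Of the 19 peaks left in each list, 13 control and 12 knockdown peaks were pieces of the Rev1 stretch. Counting a knockdown peak within 500 bases (added after seeing the data) matched 83.6% of control peaks. Of the 8 genes listed as higher in the control, 1 remained at a log2 difference of at least 1 (Xpa) and 1 at a p of at most 0.001 (Clspn). Leaving out Rev1, chosen after seeing the data, gave coding shares of 87.5% and 90.5%, and a median log2 fold of 3.35 in the knockdown. Weighting by length, joining pieces, overlap of at least 50% of the peak and single-gene annotation left the other shares within their intervals and the counts as they were. Unknown depth and 1 library per group limit every comparison.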

Other observations

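Outside the 41 genes, the damage histone gene H2afx, chosen after its values were seen, had the most peaks of the other repair genes, 15 for the control and 21 for the knockdown. The control peak of Exo1 and the second control peak of Ercc6 carried the same log2 fold over input, 3.09, and the same −log10 p, 74.4.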
